A study of Mus musculus with 44 samples.

Results

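The NADPH oxidase subunits Nox4, Cyba, Cybb, Ncf1, Ncf4 and Rac2 were followed across 4 groups of mice. They were chosen by gene symbol in the platform annotation, which gave 8 probe sets of 22690, or 6 genes of the 12393 tested. Left ventricular RNA from 44 mice was hybridised to Affymetrix 430A 2.0 arrays, 1 array per mouse. PKCε mice carry a constitutively active rabbit PKCε transgene that the Myh6 promoter drives in cardiomyocytes alone, on the FVB/N background, and nontransgenic FVB/N mice served as controls. From the age of 3 months, mice of each line were given 30 mg/kg of either nonimmune mouse IgG or the antibody FG-3149, which binds CTGF (the secreted protein encoded by Ccn2, known as connective tissue growth factor), by intraperitoneal injection 2 times per week for 3 months, and hearts were taken at 6 months. The groups were FVB IgG (n = 10, 7 of them female), FVB FG-3149 (n = 12, 6 female), PKCε IgG (n = 10, 5 female) and PKCε FG-3149 (n = 12, 6 female). The study title presents the PKCε mice as a dilated cardiomyopathy model, and only 1 transgenic line was used.

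NADPH oxidases move electrons from NADPH across a membrane to oxygen and so make superoxide or hydrogen peroxide. Cybb (NOX2, gp91phox) and Nox4 are alternative catalytic subunits, and both pair in the membrane with Cyba (p22phox). NOX2 is the oxidase of phagocytes and stays silent until cytosolic subunits, among them Ncf1 (p47phox) and Ncf4 (p40phox), and a Rac GTPase, Rac2 in blood cells, join it. NOX4 needs none of these, releases mainly hydrogen peroxide, is controlled largely through the amount of its mRNA, and is found in cardiomyocytes, fibroblasts and endothelium of the heart.

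The 250 bases before the annotated start of the catalytic subunits' genes, Nox4 and Cybb, are shown. Whether these sequences bear on the differences below was not tested. Each start is the one of the RefSeq promoter table and lies inside the gene's full annotated span (chr7:87244430-87398710 for Nox4 and chrX:9435252-9487766 for Cybb), so the span of each gene begins further upstream. Promoters of 4 of the 6 genes matched the RefSeq table of GRCm38.p6. Motifs were searched on both strands, and matches are in capitals: GAGGAA (the core bound by PU.1), TGANTCA (an AP-1 site), CAGAC (a SMAD box) and GGGCGG (a GC box). The Nox4 window is chr7:87246399-87246648 on the plus strand and the Cybb window is chrX:9469325-9469574 on the minus strand.
Nox4: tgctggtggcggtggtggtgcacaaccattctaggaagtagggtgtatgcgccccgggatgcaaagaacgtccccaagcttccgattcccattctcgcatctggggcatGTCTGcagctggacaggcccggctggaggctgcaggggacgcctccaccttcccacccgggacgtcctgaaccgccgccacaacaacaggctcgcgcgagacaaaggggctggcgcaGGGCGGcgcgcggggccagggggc
Cybb: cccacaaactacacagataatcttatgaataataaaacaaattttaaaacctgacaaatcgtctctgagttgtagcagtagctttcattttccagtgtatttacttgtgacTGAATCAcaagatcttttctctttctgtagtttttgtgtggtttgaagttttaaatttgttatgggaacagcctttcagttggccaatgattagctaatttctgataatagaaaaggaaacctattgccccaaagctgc
The Nox4 window had a GC content of 67.2% with 20 CpG dinucleotides, and 86.5% of 32851 promoters had a lower GC content. The Cybb window had a GC content of 34.0% with 1 CpG, and 3.87% of promoters were lower, while the median promoter had 52.4%. Nox4 held 1 CAGAC and 1 GGGCGG match, and Cybb held 1 TGANTCA match. CAGAC was present in 42.2% of promoters, GGGCGG in 32.7%, TGANTCA in 6.75% and GAGGAA in 23.3%. Neither window held GAGGAA. Cyba, at 60.0% GC, held 2 GGGCGG matches and Ncf1, at 54.4% GC, held 1.

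The values are ratios of each probe set to its own median over all arrays, given here as log2 (log2 ratios), so levels can be compared between arrays but not between genes. Array medians of the ratio ran from 0.954 to 1.03, and no probe set's brightness is known. The mean log2 ratio of the atrial genes Sln, Myl7 and Myl4 was above 4 on 10 arrays, 5 of them FVB IgG, 1 FVB FG-3149, 2 PKCε IgG and 2 PKCε FG-3149. PKCε IgG replicates 9 and 10 had log2 ratios of 9.32 and 3.53 for Sftpc, a surfactant gene of the lung. Scgb1a1, an airway gene, was high on these arrays (10.1 and 3.71) and also in other groups, at 9.36 on FVB IgG replicate 4 and 5.17 on FVB FG-3149 replicate 6. The mean of the 6 lung markers reached 4.05 in FVB IgG, 1.5 in FVB FG-3149, 6.01 in PKCε IgG and 1.41 in PKCε FG-3149 mice. The Y-linked gene Uty had a log2 ratio of 3.63 in FVB FG-3149 replicate 11, a mouse labelled female, whose Xist value was -0.71. Prkce, the gene of PKCε, rose by 0.49 on the log2 scale in PKCε IgG against FVB IgG (limma, adjusted p = 0.00596), and whether its probe set reads the rabbit transgene was not tested. In whole tissue, fewer cells of a type and less RNA per cell cannot be told apart.

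Nox4 was higher in PKCε than in FVB hearts, whether the mice received IgG or FG-3149. With all 44 arrays it differed by more than each of the other subunits in all 4 group comparisons. For the antibody in PKCε mice that order was lost without PKCε IgG replicate 9, where Nox4 differed by -0.33 and Cybb by 0.41. The log2 ratio of the Nox4 probe set of larger SD ran from -1.48 (median -0.23) to 0.96 in FVB IgG mice. It ran from -0.37 (median 1.08) to 3.00 in PKCε IgG mice, and the highest value belonged to replicate 9. The groups overlapped, with 6 of the 10 PKCε IgG arrays above every FVB IgG array. The group means were -0.26 ± 0.74 (SD, n = 10) in FVB IgG and 1.13 ± 1.0 (SD, n = 10) in PKCε IgG. Nox4 rose by 1.52 ± 0.26 (SE) on the log2 scale, or 2.87-fold (limma with a term for sex, Benjamini-Hochberg adjusted p = 5.48e-06). It was the only one of the 6 genes to pass the threshold of an adjusted p under 0.05 in this comparison, in which 42.2% of all 12393 genes passed and 20.7% were higher. Without replicate 9 the difference was 1.33, and without replicates 9 and 10 it was 1.24 (adjusted p = 1.10e-04). The Gapdh 3' minus 5' difference of the control probe sets, a sign of RNA quality, averaged 0.30 in PKCε IgG and -0.04 in FVB IgG, and with it as a covariate the Nox4 difference was 1.39 (adjusted p = 6.79e-04).

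Under FG-3149 the lines did not overlap in Nox4. The FVB FG-3149 arrays ran from -1.89 (median -1.30) to -0.83. The PKCε FG-3149 arrays ran from -0.19 (median 0.74) to 1.39, so that all 12 lay above every FVB FG-3149 array, in females and in males alike. Of all genes, 5.25% separated these groups in the same way. The group means were -1.29 ± 0.35 (SD, n = 12) and 0.62 ± 0.49 (SD, n = 12), a rise of 1.91 ± 0.23 (SE) or 3.76-fold (limma, adjusted p = 1.11e-08). Nox4, Rac2 and Ncf4 passed in this comparison, 3 of the 6 subunits, where 47% of all genes passed and 21.5% were higher. In all 18 alternative settings the Nox4 difference passed, between 1.49 and 2.13.

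Nox4 was lower in nontransgenic hearts treated with FG-3149, a call that was lost without the 10 arrays of high atrial markers. All 12 FVB FG-3149 arrays lay below the FVB IgG median, and 5 lay below every FVB IgG array. Nox4 fell by 0.90 ± 0.25 (SE) on the log2 scale, or 1.86-fold (limma, adjusted p = 0.0157), and was the only subunit of 6 to pass, where 9.01% of all genes passed and 4.58% were lower. The fall was 0.51 with an adjusted p of 0.582 without the 10 arrays of high atrial markers. The atrial level averaged 4.28 in FVB IgG and -0.55 in FVB FG-3149 mice, and all 3 of its genes fell between those groups. The adipocyte markers averaged 1.27 and -0.18, with 4 of 6 lower, and the fibroblast markers averaged -0.28 and -0.62, with 1 of 10 lower. Their part in the result was not tested. The adjusted p was also above the threshold in females alone (-1.04, adjusted p = 0.0709), in males alone (-0.87, adjusted p = 0.250) and with the mean of both probe sets (-0.65, adjusted p = 0.0567).

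In PKCε hearts the antibody comparison did not reach the threshold for any subunit. None of the 6 passed (limma), where 8.82% of all genes did, and at an unadjusted p under 0.05 there was Nox4 alone. The Nox4 difference was -0.51 ± 0.24 (SE), with an unadjusted p of 0.0425 and an adjusted p of 0.205, and 10 of 12 antibody arrays lay below the PKCε IgG median. Its 95% interval ran from -1.0 to -0.02. Without PKCε IgG replicate 9 the difference was -0.33, and without replicates 9 and 10 it was -0.26 (adjusted p = 0.682). The antibody differences in the lines were set against each other in an interaction term. For Nox4 that term was 0.39 ± 0.35 (SE, 95% interval from -0.31 to 1.09, adjusted p = 0.667), so the data did not distinguish the lines, and 0 of 6 subunits passed (limma) where 3.87% of all genes did, with Cybb alone at an unadjusted p under 0.05.

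The order of the Nox4 group means was PKCε IgG, PKCε FG-3149, FVB IgG and FVB FG-3149. The highest pair did not differ beyond the threshold, and the lowest pair did so only with the arrays of high atrial markers included. The middle pair, PKCε FG-3149 and FVB IgG, differ in both line and antibody and were not compared. As geometric means of the deposited ratio, the order was 2.19, 1.54, 0.832 and 0.409.

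The second Nox4 probe set gave the same direction with smaller sizes. Its difference between PKCε IgG and FVB IgG was 1.03 ± 0.23 (SE, adjusted p = 3.16e-04 over all 22690 probe sets), and between the lines under the antibody it was 1.07 ± 0.21 (SE, adjusted p = 5.70e-05). There 11 of 12 PKCε FG-3149 arrays lay above every FVB FG-3149 array. The antibody difference was -0.41 ± 0.22 (SE, adjusted p = 0.272) in FVB and -0.37 ± 0.22 (SE, adjusted p = 0.326) in PKCε mice, neither of which passed. Across the 44 arrays the probe sets correlated with a Pearson r of 0.916, and of 0.78 after the means of group and sex were removed. Both read the same RNA on the same array.

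**Figure D1:**
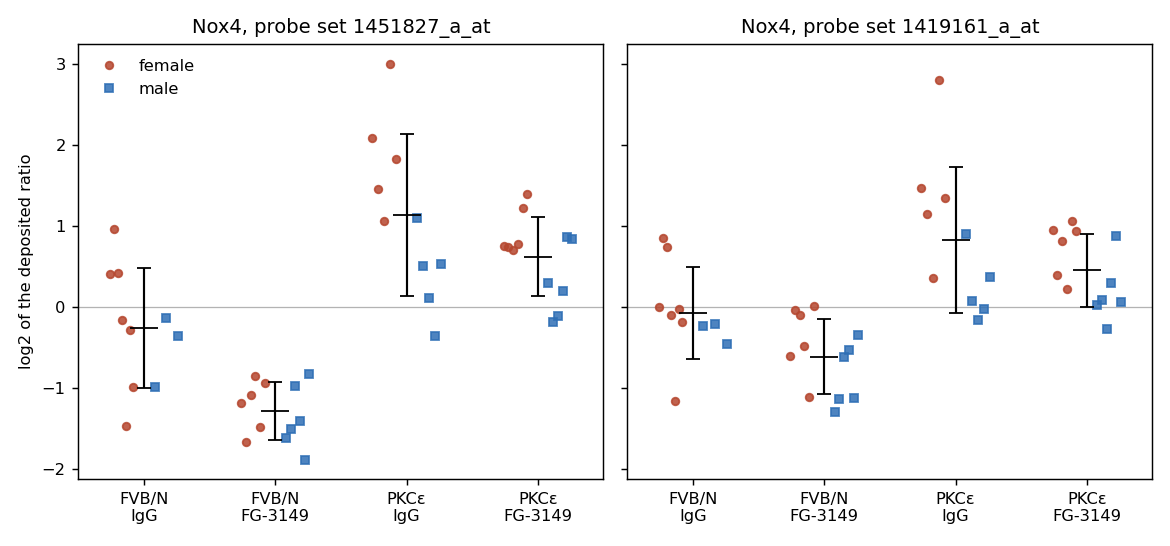
Log2 of the deposited Nox4 ratio (vertical axis) on each of the 44 arrays in the 4 groups (horizontal axis), for both probe sets. Circles are females, squares are males, and the bar with whiskers is the group mean ± SD. In the left panel the PKCε FG-3149 arrays all lie above the FVB FG-3149 arrays, and PKCε IgG females reach 3.00.

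Nox4 was higher in females, and the female and male arrays stood furthest apart in PKCε IgG mice. Over all groups Nox4 was 0.64 ± 0.17 (SE) higher in females, or 1.56-fold (limma, adjusted p = 0.00941). Ncf4 was 0.37 ± 0.12 (SE) higher (adjusted p = 0.0280). The Ncf4 difference passed in 9 of 14 alternatives. These were 2 of 6 subunits, where 15.8% of all genes passed and 8.67% were higher in females. PKCε IgG females had Nox4 values between 1.06 and 3.00, with a mean of 1.88 ± 0.73 (SD, n = 5). PKCε IgG males had values between -0.37 and 1.09, with a mean of 0.37 ± 0.54 (SD, n = 5). Of the 5 male arrays, 1 lay above the lowest female array. In FVB FG-3149 mice the means were -1.21 ± 0.32 (SD, n = 6) in females and -1.37 ± 0.40 (SD, n = 6) in males, which overlapped. PKCε FG-3149 females had a mean of 0.93 ± 0.30 (SD, n = 6) and males of 0.31 ± 0.45 (SD, n = 6).

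Within females the difference between the lines under IgG was 2.05, and all 5 PKCε arrays lay above all 7 FVB arrays. The share of all genes that separated in this way within females was not counted. Within males the difference was 0.87, with 4 of 5 PKCε arrays above all 3 FVB arrays, and did not pass when males were fitted alone (adjusted p = 0.0579). The sex difference of this effect was 1.18 ± 0.49 (SE), with an unadjusted p of 0.0222 and an adjusted p of 0.521. No subunit passed, where 0.0807% of all genes did. Without the 10 arrays of high atrial markers it was 2.23 (adjusted p = 0.0197), without PKCε IgG replicates 9 and 10 it was 0.82 (adjusted p = 0.809), and over all the alternatives the adjusted p ran from 0.0197 to 1.0. PKCε IgG replicates 9 and 10 are both females, and 5 of the 7 FVB IgG females had a high atrial level. For the antibody in PKCε mice the means differed by -0.96 in females and by -0.06 in males. The sex difference of that effect was -0.90 ± 0.45 (SE, adjusted p = 0.632), and 0.0161% of all genes passed. The sex term itself did not pass for Nox4 after quantile normalization (0.41, adjusted p = 0.0786) or without the arrays of high atrial markers (0.43, adjusted p = 0.170).

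Cybb, the phagocyte catalytic subunit, did not follow Nox4. FVB IgG arrays ran from -0.53 (median 0.23) to 0.74 and PKCε IgG arrays from -0.75 (median -0.12) to 0.98, and the groups overlapped. The difference was -0.32 ± 0.18 (SE, 95% interval from -0.68 to 0.04, adjusted p = 0.136), opposite in sign to that of Nox4. It passed in 1 of 44 runs that each left out 1 array, the run without PKCε IgG replicate 9 (-0.46, adjusted p = 0.0259). Among the 18 alternatives it passed in 1, with array weights (-0.41, adjusted p = 0.0463). Over those alternatives, which include the Gapdh 3' minus 5' covariate, the difference ran from -0.41 to -0.01, so its size depended on the setting. The Gapdh 3' minus 5' difference averaged 0.30 in PKCε IgG and -0.04 in FVB IgG mice, so this sign of RNA quality differed between the groups compared. Under the antibody FVB arrays ran from -0.24 (median -0.03) to 0.30, the narrowest of the groups, and PKCε arrays from -0.43 (median 0.02) to 1.18. The difference between those lines was 0.18 ± 0.16 (SE, adjusted p = 0.361). FG-3149 minus IgG was 0.29 ± 0.17 (SE, adjusted p = 0.321) in PKCε and -0.21 ± 0.17 (SE, adjusted p = 0.501) in FVB mice. The interaction term was 0.50 ± 0.24 (SE, unadjusted p = 0.0424, adjusted p = 0.286). Cybb lies on the X chromosome, and its sex difference was 0.05 ± 0.12 (SE, adjusted p = 0.787).

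Cyba, the membrane partner that stabilises both catalytic subunits, varied least among the probe sets used for the 6 genes. Its SD over the arrays was 0.2134, against 0.2125 for the Ncf1 probe set that was not used. Cyba values lay between -0.31 and 0.42 on all 44 arrays. The group means were 0.06 ± 0.22 (SD, n = 10) in FVB IgG, -0.05 ± 0.20 (SD, n = 12) for FVB FG-3149, 0.03 ± 0.21 (SD, n = 10) in PKCε IgG and 0.05 ± 0.24 (SD, n = 12) in PKCε FG-3149 mice. The line difference under IgG was -0.02 ± 0.10 (SE), with a 95% interval from -0.22 to 0.17, and the differences in the other group comparisons ran from -0.10 to 0.09. None passed.

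Rac2, the GTPase of blood cells that switches NOX2 on, differed between the lines under the antibody. FVB FG-3149 arrays ran from -0.88 (median -0.35) to 0.03, and PKCε FG-3149 arrays from -0.74 (median 0.13) to 0.87. The groups overlapped, with 8 of 12 PKCε FG-3149 arrays above every FVB FG-3149 array. Rac2 rose by 0.52 ± 0.16 (SE) on the log2 scale, or 1.44-fold (limma, adjusted p = 0.00875). The rise was 0.97 within females, where all 6 PKCε arrays lay above all 6 FVB arrays, and the difference was 0.07 within males (adjusted p = 0.796). A sex difference of this line effect was not tested. The share of all genes that separated the lines in this way within females was not counted. Under IgG the Rac2 values overlapped almost fully, from -0.91 (median 0.02) to 0.77 in FVB and from -0.40 (median -0.01) to 0.93 in PKCε mice, and the difference was 0.10 ± 0.18 (SE, adjusted p = 0.676). The antibody difference in FVB mice was -0.37 ± 0.17 (SE, unadjusted p = 0.0413, adjusted p = 0.201), and in females alone it was -0.69 (adjusted p = 0.0776). The interaction term was 0.43 ± 0.24 (SE, adjusted p = 0.413).

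Ncf4, a cytosolic subunit that binds a membrane phosphoinositide, lay in the same order as Rac2 under the antibody. FVB FG-3149 arrays ran from -0.68 (median -0.25) to 0.09 and PKCε FG-3149 arrays from -0.80 (median 0.10) to 0.58, with overlap. Ncf4 rose by 0.38 ± 0.16 (SE), or 1.30-fold (limma, adjusted p = 0.0425). The call held in 32 of 44 runs that each left out 1 array, and without FVB FG-3149 replicate 11 the adjusted p was 0.0866. Under IgG the arrays ran from -0.80 (median -0.07) to 0.72 in FVB and from -0.59 (median 0.15) to 1.36 in PKCε mice. That difference was 0.34 ± 0.17 (SE, adjusted p = 0.102). It passed in females alone (0.56, adjusted p = 0.0429) and without the arrays of high atrial markers (0.57, adjusted p = 0.0364). PKCε IgG females averaged 0.65 ± 0.44 (SD, n = 5), with all 5 above every PKCε IgG male. How many of all genes separated the sexes in this way was not counted.

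Ncf1, the organiser subunit, is read by 2 probe sets that disagreed. On the probe set of larger SD FVB IgG arrays ran from -0.45 (median 0.01) to 0.37 and PKCε IgG arrays from -0.58 (median 0.05) to 0.58. It gave 0.13 ± 0.11 (SE, adjusted p = 0.322) between the lines under IgG and 0.10 ± 0.10 (SE, adjusted p = 0.390) under the antibody. On the other, FVB IgG arrays ran from -0.04 (median 0.12) to 0.46 and PKCε IgG arrays from -0.41 (median -0.12) to 0.14. That signal fell by 0.30 ± 0.08 (SE) under IgG (adjusted p = 0.00317 over all probe sets), with 8 of 10 PKCε arrays below every FVB array. Under the antibody it fell by 0.17 ± 0.07 (SE, adjusted p = 0.0488). Across the 44 arrays the probe sets had a Pearson r of -0.15, so no direction is given for the gene. Neither probe set passed in an antibody comparison.

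**Figure D2:**
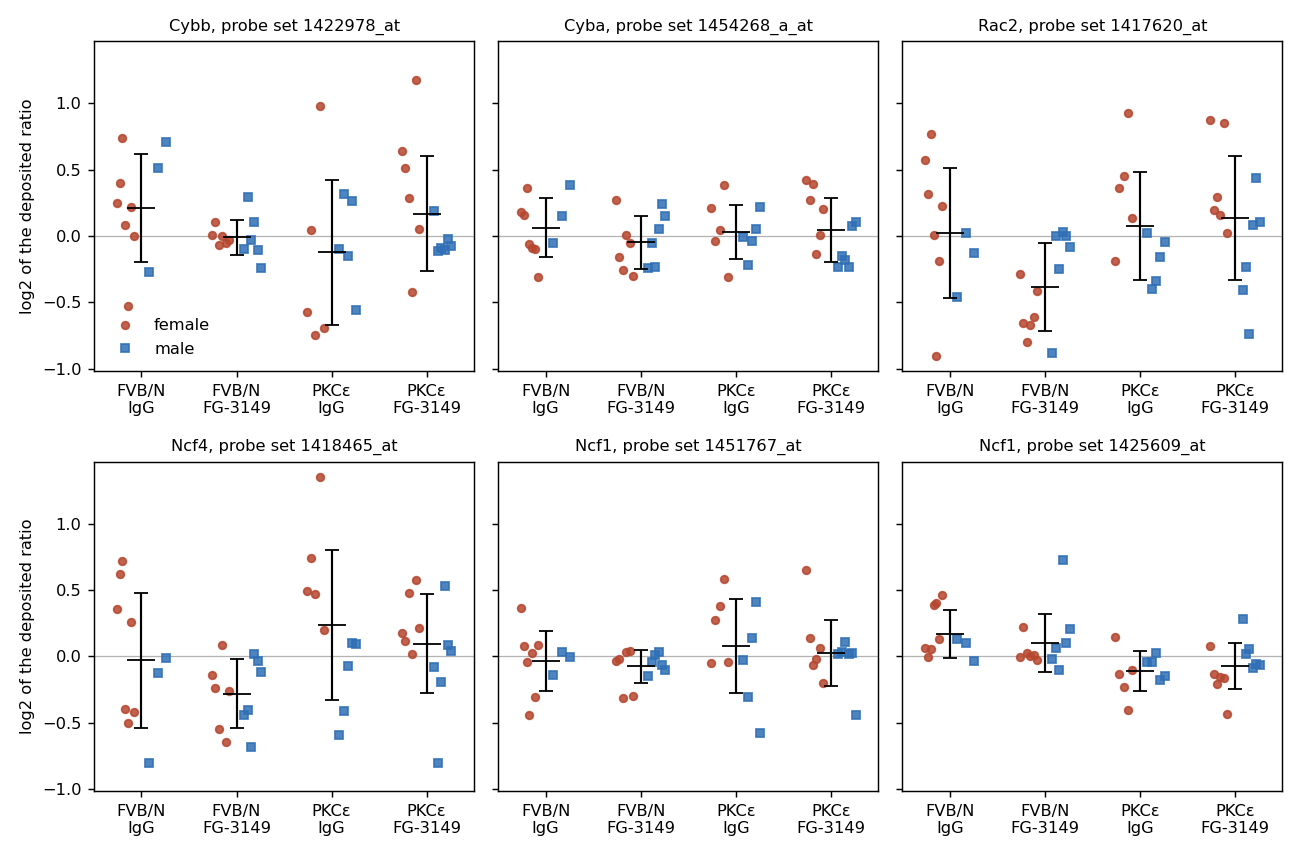
Log2 of the deposited ratio (vertical axis) on each array in the 4 groups (horizontal axis) for Cybb, Cyba, Rac2, Ncf4 and both probe sets of Ncf1, on a shared axis. Circles are females, squares are males, and the bar with whiskers is the group mean ± SD. Cyba stays between -0.31 and 0.42 on all arrays.

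The members varied to different degrees. The SD over the 44 arrays was 1.14 for Nox4, larger than that of 99.4% of genes, against 0.46 for both Rac2 and Ncf4, 0.41 for Cybb, 0.24 for Ncf1 and 0.21 for Cyba. As a description over the 44 arrays, which share the group means, Nox4 had a Pearson r of 0.69 with Ncf4, 0.64 with Rac2, 0.33 with Cyba, 0.26 with Ncf1 and 0.15 with Cybb. After the means of group and sex were removed these were 0.49, 0.51, 0.38, -0.12 and 0.44. Ncf4 and Rac2 had an r of 0.69, and of 0.56 within groups. The median log2 difference over the 6 genes was 0.11 between the lines under IgG, against -0.05 over all genes. It was 0.28 under the antibody, against -0.05 over all genes.

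**Figure D3:**
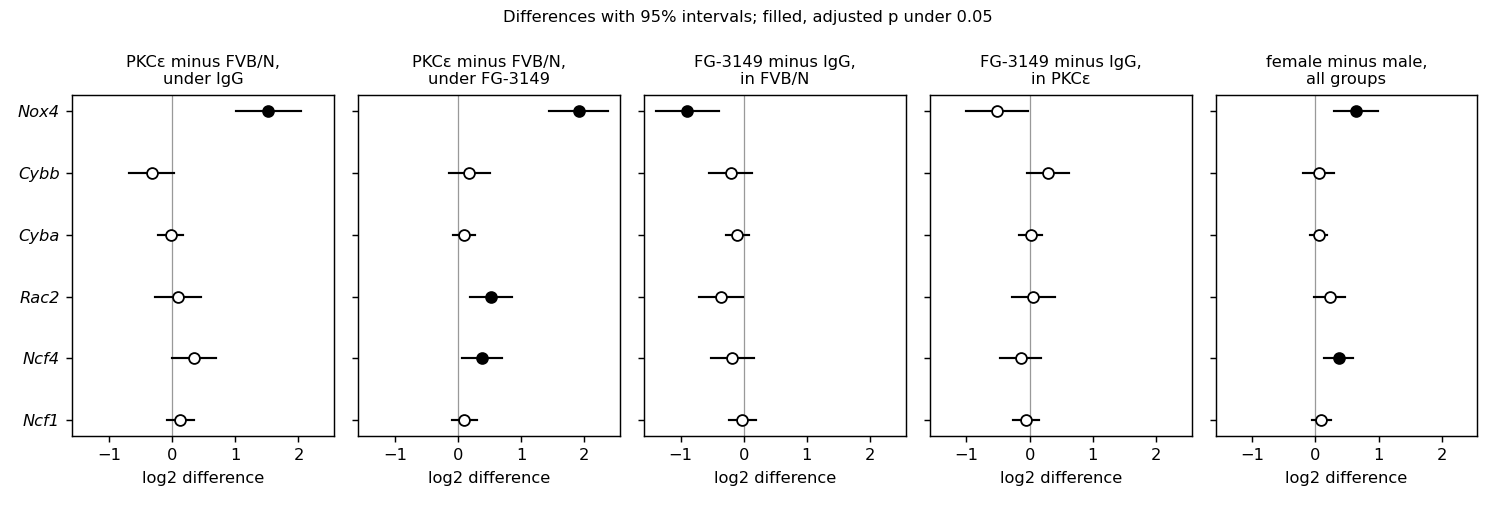
Log2 differences (horizontal axis) of the 6 subunits (vertical axis) in 5 comparisons, with 95% intervals from the limma fit. Filled points passed an adjusted p under 0.05: Nox4 in 4 panels, Ncf4 in 2 and Rac2 in 1.

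Genes that work with the oxidases rose more often than they fell in PKCε hearts. Of 28 partners listed, 19 were measured, and under IgG 8 rose and 2 fell, 52.6% of the list against 42.2% of all genes. Pla2g4a, the cytosolic phospholipase A2 that releases arachidonic acid, rose by 1.38 ± 0.18 (SE, adjusted p = 4.75e-08). Cybc1, the chaperone needed to make the NOX2 heterodimer, rose by 0.66 ± 0.10 (SE, adjusted p = 7.26e-07) while Cybb and Cyba did not pass. Duoxa1, a maturation factor of the dual oxidase DUOX1, rose by 0.75 ± 0.14 (SE, adjusted p = 4.61e-05). Poldip2, a protein that binds p22phox and raises NOX4 activity, fell by 0.28 ± 0.06 (SE, adjusted p = 9.74e-05), opposite to Nox4. Rac1, the widely expressed Rac, differed by 0.13 ± 0.07 (SE, adjusted p = 0.0993) under IgG and rose by 0.30 ± 0.06 (SE, adjusted p = 7.59e-05) under the antibody. In that comparison 9 partners rose and 2 fell, 57.9% of the list against 47% of all genes. In the antibody comparisons 0 of 19 passed (limma), where 8.82% of all genes passed in PKCε and 9.01% in FVB mice. At an unadjusted p under 0.05 there were 6 in PKCε and 2 in FVB mice. The median partner differed by 0.20 between the lines under IgG and by 0.06 under the antibody.

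Of 14 genes of signals known to raise Nox4, 12 were measured. Among them 9 rose and 1 fell under IgG, 83.3% of the list against 42.2% of all genes, with a median of 0.64 against -0.05. Tgfb2 rose by 1.77 ± 0.15 (SE, adjusted p = 1.67e-12) and Hif1a, the oxygen-sensing transcription factor, by 1.06 ± 0.07 (SE, adjusted p = 1.36e-14). Ace, which makes angiotensin II, rose by 1.17 ± 0.11 (SE, adjusted p = 1.44e-11) while Agt, the gene of its precursor and the only one of the 12 to fall, fell by 0.47 ± 0.17 (SE, adjusted p = 0.0215). The call of Agt was lost in 2 settings. Without the arrays of high atrial markers 8 of the 12 rose and 0 fell, and 9 rose and 0 fell without PKCε IgG replicates 9 and 10. Tgfbr2, a receptor of TGF-beta, rose by 0.79 ± 0.10 (SE, adjusted p = 1.18e-08), Ccn2 by 0.74 ± 0.23 (SE, adjusted p = 0.00756) and Tgfb1 by 0.40 ± 0.14 (SE, adjusted p = 0.0220). Under the antibody 9 rose and 1 fell between the lines, again 83.3% against 47% of all genes, and the Tgfb1 difference was 0.22 (adjusted p = 0.155). In PKCε mice FG-3149 lowered 3 of 12, 25% of the list where 8.82% of all genes passed. It lowered Ace by 0.42 ± 0.10 (SE, adjusted p = 0.00769), Tgfb3 by 0.60 ± 0.17 (SE, adjusted p = 0.0220) and Tgfbr2 by 0.29 ± 0.09 (SE, adjusted p = 0.0384), and 0 of 12 passed without PKCε IgG replicates 9 and 10. In FVB mice 0 of 12 passed (limma), where 9.01% of all genes did, while 4 had an unadjusted p under 0.05.

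Enzymes that remove superoxide and peroxide changed in both directions. Of the 15 measured of 18, 3 rose and 6 fell in PKCε IgG against FVB IgG, 60% of the list against 42.2% of all genes, and the median of -0.05 was that of all genes. Txnrd2, the mitochondrial thioredoxin reductase, fell by 0.72 ± 0.11 (SE, adjusted p = 1.36e-06), Prdx3, a peroxiredoxin, by 0.34 ± 0.06 (SE, adjusted p = 4.15e-06) and Txn2 by 0.41 ± 0.08 (SE, adjusted p = 4.08e-05). Gpx7, a peroxidase of the endoplasmic reticulum, rose by 0.58 ± 0.10 (SE, adjusted p = 3.02e-06). FG-3149 raised 2 of 15 in PKCε mice, 13.3% of the list where 8.82% of all genes passed. It raised Txn2 by 0.27 ± 0.07 (SE, adjusted p = 0.0139) and Txnrd2 by 0.35 ± 0.11 (SE, adjusted p = 0.0331), of which 0 passed without PKCε IgG replicates 9 and 10. In FVB mice 3 rose and 2 fell, 33.3% of the list where 9.01% of all genes passed. Among them Gpx3, the plasma glutathione peroxidase, fell by 0.84 ± 0.21 (SE, adjusted p = 0.00817), and 0 of 15 passed without the arrays of high atrial markers. Between the lines under the antibody 3 rose and 5 fell, 53.3% of the list against 47% of all genes.

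NRF2 is the transcription factor of the antioxidant response. Of the 13 measured of 14, 7 fell and 0 rose under IgG, 53.8% of the list against 42.2% of all genes, with a median of -0.20 against -0.05. Gsta4, a glutathione transferase for lipid peroxidation products, fell by 0.89 ± 0.08 (SE, adjusted p = 8.64e-12). Me1, the cytosolic malic enzyme that makes NADPH, fell by 0.65 ± 0.07 (SE, adjusted p = 1.12e-09), and Gstm1 fell by 0.66 ± 0.09 (SE, adjusted p = 7.84e-08). FG-3149 in PKCε mice raised 3 of 13, 23.1% of the list where 8.82% of all genes passed. It raised Gstm1 by 0.47 ± 0.08 (SE, adjusted p = 2.95e-04), Gsta4 by 0.33 ± 0.08 (SE, adjusted p = 0.00497) and Ephx1 by 0.33 ± 0.11 (SE, adjusted p = 0.0425), and without PKCε IgG replicates 9 and 10 it raised 1 of 13. In FVB mice 2 rose and 1 fell, 23.1% of the list where 9.01% of all genes passed. Without the arrays of high atrial markers 0 rose and 1 fell. Between the lines under the antibody 1 rose and 5 fell, 46.2% of the list against 47% of all genes, with a median of -0.04 against -0.05.

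**Figure D4:**
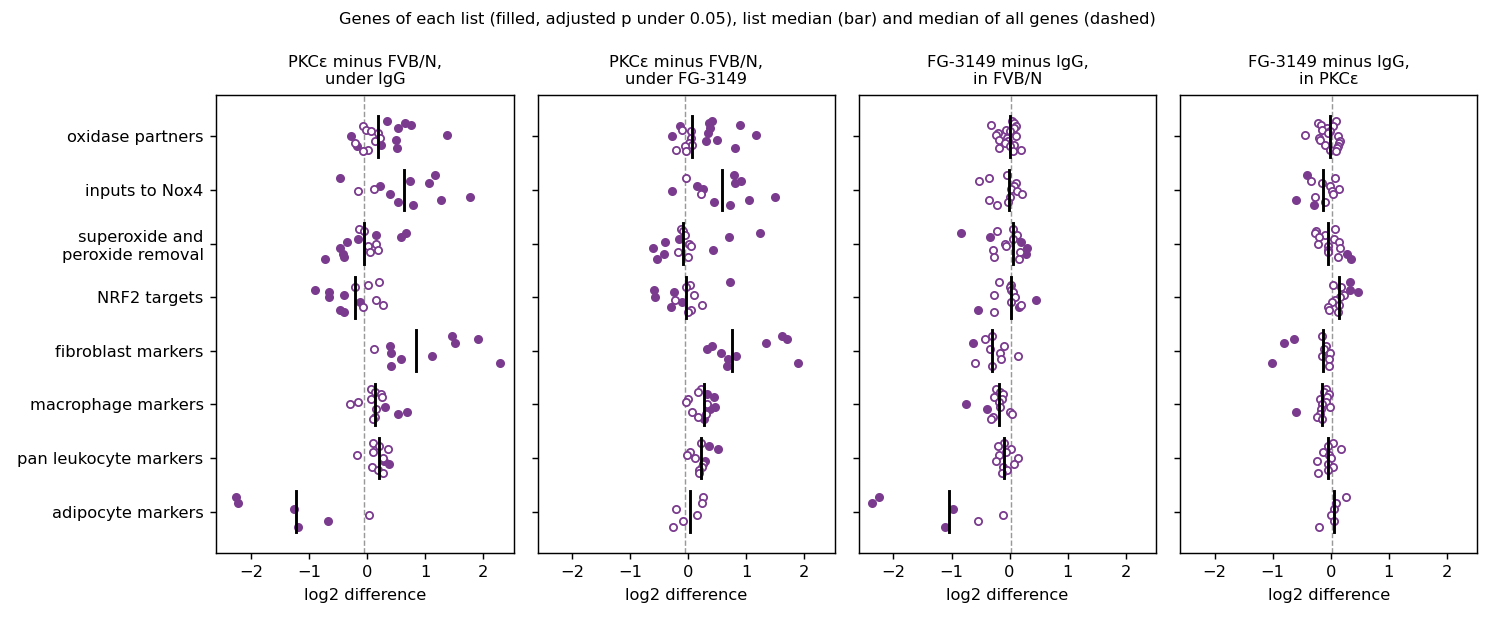
Log2 differences (horizontal axis) of the genes in 4 pathway lists and 4 lists of cell type markers (vertical axis) in the 4 group comparisons. Each circle is a gene, filled where the adjusted p was under 0.05, the black bar is the list's median and the dashed line is the median of all genes. The inputs to Nox4 and the fibroblast markers lie mostly to the right in both line comparisons, with medians of 0.64 and 0.85 under IgG.

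Markers of fibroblasts moved with Nox4 between the lines, while 3 of 13 macrophage markers rose. Of 10 fibroblast markers 9 rose in PKCε IgG against FVB IgG and 10 rose under the antibody, where 20.7% and 21.5% of all genes were higher, with medians of 0.85 and 0.75. Col1a2 rose by 1.91 ± 0.17 (SE, adjusted p = 2.25e-12) and Postn, a matrix protein of activated fibroblasts, by 2.29 ± 0.24 (SE, adjusted p = 3.91e-10). The mean of the fibroblast markers had group medians of -0.27 in FVB IgG, -0.60 under FVB FG-3149, 0.75 under PKCε IgG and 0.37 under PKCε FG-3149. It ran from 0.16 to 1.24 in PKCε IgG and from -0.82 to 0.33 in FVB IgG. Its part in the Nox4 result was not tested. FG-3149 lowered 3 of 10 in PKCε mice, Postn by 1.01 ± 0.23 (SE, adjusted p = 0.00406), Col3a1 by 0.81 ± 0.19 (SE, adjusted p = 0.00440) and Col1a2 by 0.63 ± 0.16 (SE, adjusted p = 0.00765). These were 30% of the list, where 8.82% of all genes passed. The count was 2 of 10 without the arrays of high atrial markers, and also 2 of 10 without PKCε IgG replicates 9 and 10.

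Macrophages are a cell type rich in NOX2. Of 13 macrophage markers 3 rose under IgG and 5 rose under the antibody between the lines, with medians of 0.13 and 0.28. These are 23.1% and 38.5% of the list, where 20.7% and 21.5% of all genes were higher. Of 11 pan leukocyte markers 2 and 3 rose. Without PKCε IgG replicates 9 and 10 the IgG counts were 1 of 13 and 0 of 11. Without the arrays of high atrial markers they were 4 of 13 and 2 of 11, with medians of 0.33 and 0.37. The macrophage level ran from -0.36 to 0.69 in FVB IgG, from -0.47 to 0.07 in FVB FG-3149, from -0.19 to 1.04 in PKCε IgG and from -0.32 to 0.31 in PKCε FG-3149 mice. Coro1a, an actin regulator of leukocytes, rose by 0.51 ± 0.14 (SE, adjusted p = 0.00322) and Cd68 by 0.46 ± 0.11 (SE, adjusted p = 6.22e-04) in the same comparison in which Rac2 and Ncf4 rose. In that comparison 0 of 9 neutrophil markers rose and 4 fell, and 0 of 9 T and B lymphocyte markers rose and 2 fell. These are 44.4% and 22.2% of the lists, where 47% of all genes passed. In females against males 6 of 13 macrophage markers were higher and 0 lower, where 8.67% of all genes were higher. That count was 2 of 13 without the arrays of high atrial markers and 3 of 13 without PKCε IgG replicates 9 and 10. The part of leukocyte number in the Rac2 and Ncf4 results was not tested, and ratios to a median do not show whether a marker was near background.

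The remaining markers in PKCε IgG against FVB IgG were mixed, in a comparison where 42.2% of all genes passed and 20.7% were higher. Of 9 neutrophil markers 0 rose and 1 fell, of 9 T and B lymphocyte markers 0 rose and 1 fell, and of 9 endothelial markers 1 rose and 0 fell. Of 10 smooth muscle and pericyte markers 1 rose and 3 fell, and of 11 ventricular cardiomyocyte markers 1 rose and 5 fell. Of 6 adipocyte markers 0 rose and 5 fell, and 0 of 3 atrial and 0 of 6 lung markers passed (limma), with 1 of each at an unadjusted p under 0.05. Without the arrays of high atrial markers 3 of 6 adipocyte markers fell, and 5 fell without PKCε IgG replicates 9 and 10. In both settings 0 endothelial markers rose and 0 lymphocyte markers fell. Neutrophil markers that fell numbered 1 and 2 in these settings, and ventricular cardiomyocyte markers 6 and 5. The adipocyte hormone gene Adipoq fell by 2.25 ± 0.49 (SE, adjusted p = 2.19e-04).

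The genes whose pattern over the 44 arrays was most like that of Nox4 all had a Pearson r of at least 0.939. They were Pcolce2 (r = 0.949, and 0.85 within group and sex), which encodes an enhancer of procollagen processing, Sfrp2 (0.949 and 0.85), a secreted WNT modulator, Reck (0.948 and 0.79), a membrane inhibitor of matrix metalloproteinases, Nupr1 (0.947 and 0.78), a stress-induced nuclear protein, and Mfap4 (0.939 and 0.72), a microfibril-associated protein. Since they were chosen on the same arrays, group means included, their differences are given as a description. PKCε IgG minus FVB IgG was 1.83 for Mfap4 and 0.92 for Pcolce2. FG-3149 minus IgG was -1.57 and -0.55 in FVB mice, and -0.59 and -0.28 in PKCε mice. For Cybb the closest genes were Tmem216 (r = 0.648, and 0.64 within group and sex), Sppl2a (0.629 and 0.64), Chmp2a (0.627 and 0.54), Itga8 (0.621 and 0.67) and Snx2 (0.621 and 0.61). By the r over all arrays, which includes the group means, no gene followed Cybb as closely as 5 genes followed Nox4.

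**Figure D5:**
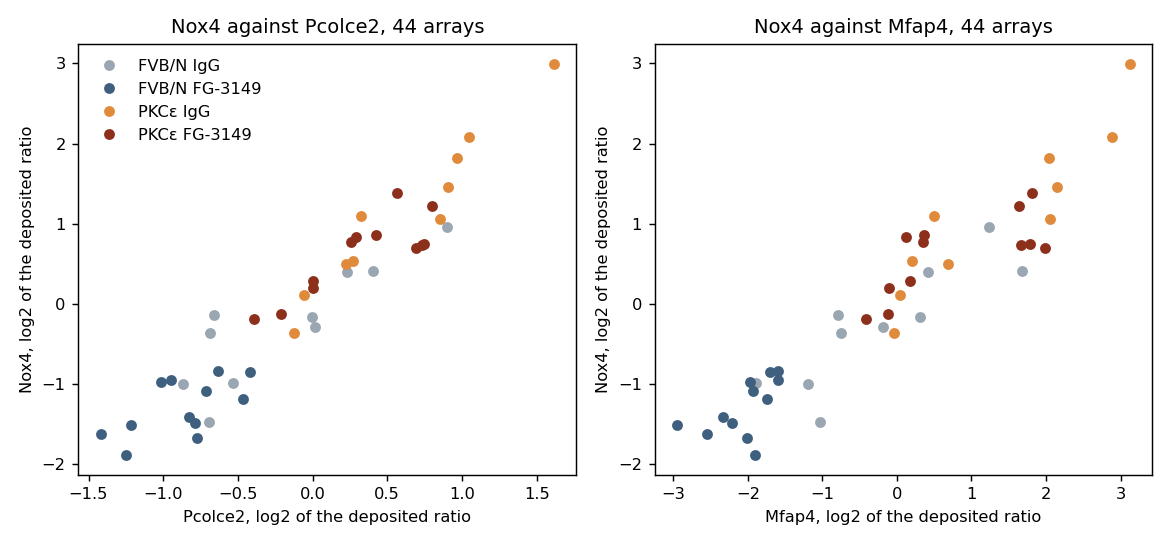
Nox4 (vertical axis) against Pcolce2 (left) and Mfap4 (right) on each of the 44 arrays, as log2 of the deposited ratio, coloured by group. The points lie along a line with r of 0.949 and 0.939, with FVB FG-3149 arrays at the lower end and PKCε IgG arrays at the upper end.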

How the data were processed

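Total RNA of 44 left ventricles (250 ng each, 1 array per mouse) was measured. Per the series' design text in the labels, the authors ran GCRMA and then GeneSpring GX 7.3.1, which scaled every probe set to its own median, so the deposited values are linear ratios (0.01 to 1104, with 25 at the lowest). Brightness and detection are not known from ratios, and precision is set by how many mice each group holds.

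Log2 of each deposited ratio was fitted in limma 3.58.1 (R 4.3.3, lmFit and eBayes) with the 4 groups of the sample titles and a term for sex. A fit of the 8 combinations of group and sex gave the sex differences of effects. Tests are two-sided, and p was adjusted by Benjamini-Hochberg over 12393 genes. Of 22690 probe sets, 20380 had 1 symbol, 691 several, 1555 none and 64 were controls. Each gene is represented by its probe set of largest SD over the arrays.

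Members and gene lists were chosen with earlier results of these data known. The text names all members, from each list up to 4 genes of lowest p per comparison, Rac1, Tgfb1 and Ccn2, and the 5 genes most like Nox4 and most like Cybb, and Agt was named after its value was seen. The fit was tested on simulated data. Alternatives changed the sex term, a replicate block, scaling, the filter, the pseudocount (0.1), the floor (0.05), probe sets, weights, the threshold (0.01), a Gapdh covariate and the arrays used. List counts without arrays of high atrial markers (above 4) or without PKCε IgG replicates 9 and 10 were added after seeing the data.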

Additional observations from a re-analysis of the deposited data

Results flagged for a closer look

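The antibody difference in PKCε mice minus that in FVB mice passed in the limma interaction term for 3 of 13 NRF2 targets, where 3.87% of all genes passed. It was 0.52 for Ephx1 (adjusted p = 0.0404), which encodes an epoxide hydrolase, 0.41 for Gstm1 (adjusted p = 0.0406) and 0.51 for Tkt (adjusted p = 0.0433), a transketolase. Without the 10 arrays of high atrial markers, 0 of 13 passed.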

How the results depend on the processing

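Differences below are log2. The Nox4 rise in PKCε mice passed in 17 of 18 alternatives under IgG (0.87 to 2.05) and in 18 of 18 under the antibody (1.49 to 2.13). Its fall under FG-3149 in FVB mice passed in 14 of 18 (-1.04 to -0.51). Leaving out each of the 44 arrays in turn kept all of these calls. The causes of the changes that follow were not tested, except that fewer arrays or other numbers of tested features enter where the setting says so.

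Counts of called genes were 5235 for the line under IgG, 5830 for the line under the antibody, 1093 for the antibody in PKCε, 1116 for the antibody in FVB, 479 for the interaction, 1956 for sex, 10 for the sex difference of the line effect under IgG and 2 for that of the antibody effect in PKCε. In that order, every probe set tested singly gave 9273, 10254, 1907, 1889, 893, 3361, 17 and 4. Males alone gave 2169, 2834, 57, 57 and 37 for the first 5, with 0, 1 and 0 subunits called for the line under IgG, the line under the antibody and the antibody in FVB. Females alone gave 406 for the antibody in FVB with 0 subunits, 110 for the interaction, and 2 subunits for the line under IgG. The 0.01 threshold gave 3876 for the line under the antibody, 418 and 458 (0 subunits) for the antibody in PKCε and FVB, 186 for the interaction and 875 (1 subunit) for sex. Without the arrays of high atrial markers the antibody gave 528 in PKCε and 217 in FVB (0 subunits), the interaction 127, sex 1174 (0 subunits), its interactions 343 (1 subunit) and 5, and the line under IgG 2 subunits. Without PKCε IgG replicates 9 and 10 the antibody in PKCε gave 442, the sex difference of its effect 5 and sex 1 subunit. The Gapdh covariate gave 480 for the antibody in PKCε, 724 for the interaction, and 20 and 4 for the sex differences. Quantile normalization gave 726 for the antibody in PKCε, 0 subunits for sex, and 4 and 1 for the sex differences. Genes with an SD above the median gave 3404, 3450 and 21 for the lines under IgG and antibody and the sex difference of the line effect. Array weights called 2 subunits for the line under IgG and 1 for sex, and the mean of all probe sets called 0 for the antibody in FVB. Without single arrays, counts ran from 741 to 1484 for the antibody in FVB, from 7 to 17 and from 2 to 6 for the sex differences, and from 1 to 2 subunits for the line under IgG and for sex.

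Signs turned only for differences that had not passed. For the line under IgG these were Cyba after centring (0.00771) and in females (0.0380), Ncf1 in males (-0.0386) and as the mean of probe sets (-0.0827), and Rac2 without replicates 9 and 10 (-0.00208). For the line under the antibody they were Cyba (-0.0896) and Cybb (-0.0248) in males and Ncf1 as the mean of probe sets (-0.0364). For the antibody in PKCε they were Cyba with the Gapdh covariate (-0.00105), after centring (-0.00233), after quantile normalization (-0.00417) and in males (-0.106), Rac2 with the Gapdh covariate (-0.0593), and Ncf1 (0.0350) and Ncf4 (0.106) in males. For the antibody in FVB they were Ncf4 in males (0.0366) and without the arrays of high atrial markers (0.0194). For the interaction they were Ncf1 in males (0.0516), as the mean of probe sets (0.0463), after quantile normalization (0.0144) and without replicates 9 and 10 (0.0124), Ncf4 in females (-0.0107), without the arrays of high atrial markers (-0.118) and without FVB FG-3149 replicate 11 (-0.0204), and Nox4 without the arrays of high atrial markers (-0.00941). For sex they were Cybb with array weights (-0.00696) and after quantile normalization (-0.00142). Without single arrays the ranges that crossed 0 were -0.0636 to 0.0251 (Cyba) and -0.00797 to 0.170 (Rac2) for the line under IgG, -0.0265 to 0.0523 (Cyba) and -0.120 to 0.00114 (Ncf1) for the antibody in PKCε, -0.0674 to 0.0185 (Ncf1) for the antibody in FVB, -0.0927 to 0.0270 (Ncf1) and -0.0313 to 0.153 (Ncf4) for the interaction, and -0.00674 to 0.0926 (Cybb) for sex.

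With the replicate number as a replicate block, Nox4 differed by 1.5 and 1.91 between the lines, by -0.54 and -0.94 (adjusted p = 0.0174) for the antibody in PKCε and FVB, and by 0.55 for sex. Ncf4 no longer passed for sex (0.34, adjusted p = 0.0643), leaving 1 subunit, 1 gene was called for the sex difference of the antibody effect, and Ncf1 turned to 0.010 for the antibody in FVB. Deviations of same-numbered arrays from their group means correlated above 0.1 in 0 of 10, 2 of 10, 1 of 10 and 0 of 12 pairs. Sex was left in these deviations, so the check cannot tell whether same-numbered arrays share more than a number.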
